A study of Arabidopsis thaliana with 9 samples.

Results

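RNA of 8 genes of the low-oxygen response was measured by sequencing in Arabidopsis thaliana seedlings. They were picked by name: the 5 group VII ethylene response factor genes HRE1, HRE2, RAP2.2, RAP2.3 and RAP2.12, the plant cysteine oxidase genes PCO1 and PCO2, and the haemoglobin gene HB1. They are 8 of 29071 genes measured in the series, and all 8 stood in both deposited tables. The series addresses the mitochondrial unfolded protein response, as its title states. Whole 7-day-old seedlings of wild type Col-0, grown on Murashige and Skoog medium, received ethidium bromide (EtBr), a DNA-intercalating dye, doxycycline (Dox), an antibiotic that stops protein synthesis inside mitochondria and plastids, or water. Each of the 3 groups held 3 libraries, and the dose, the length of treatment and the oxygen supply are not given in the labels. The labels do not say whether the libraries stem from separate cultures. A p-value here thus reflects the spread among the 6 libraries of its comparison, possibly only a technical one.

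Group VII ethylene response factors are transcription factors whose protein level depends on oxygen. In air, plant cysteine oxidases oxidise the cysteine that follows the initial methionine of these factors, which marks them for destruction by the arginine branch of the N-degron pathway; nitric oxide also takes part. When oxygen is short the factors persist and switch on genes for fermentation, sugar breakdown, the inducible cysteine oxidases PCO1 and PCO2 and the haemoglobin HB1, which scavenges nitric oxide. RAP2.2, RAP2.3 and RAP2.12 are known as constitutively transcribed members, and HRE1 and HRE2 as members whose RNA itself is induced by low oxygen. RNA levels do not show how much of these proteins was present, because their control is largely at protein stability.

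The reading frames of the 5 factors open with the codon on which this control acts, and their first 45 coding bases are shown for that reason. They are exonic coding sequence from RefSeq's TAIR10.1 genome and annotation, on the coding strand, with the second codon in capitals. RefSeq lists 3 transcripts of HRE1, of which 2 have the first start and 1 the second.
HRE1, chr1:27241904-27241948, plus strand: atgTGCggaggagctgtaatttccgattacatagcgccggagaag
HRE1 of the shorter transcript, chr1:27242142-27242186, plus strand: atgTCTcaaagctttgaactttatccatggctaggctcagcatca
HRE2, chr2:19503446-19503490, minus strand: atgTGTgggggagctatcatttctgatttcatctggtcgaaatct
RAP2.2, chr3:4738956-4739000, minus strand: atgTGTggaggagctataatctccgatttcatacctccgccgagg
RAP2.3, chr3:5705784-5705828, plus strand: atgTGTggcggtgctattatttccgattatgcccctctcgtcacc
RAP2.12, chr1:20135242-20135286, plus strand: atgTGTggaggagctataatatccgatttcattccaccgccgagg
The second codon encodes cysteine at 5 of these 6 starts; in the shorter HRE1 transcript it encodes serine. Among the 5 cysteine starts, 21 of 45 bases were the same in all. RAP2.2 and RAP2.12 were the most alike pair, with 42 of 45 bases equal, and HRE2 and RAP2.3 the least alike, with 26. The deposited values are per gene, so the HRE1 values below do not separate the transcripts with and without the cysteine. The frames of PCO1, PCO2 and HB1 have other codons after the methionine.

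Libraries held 17724030 to 20330871 reads. Levels are the normalized counts of the deposited tables, that is, reads per gene scaled by a factor for each library. The tables for EtBr and for Dox were scaled separately and share their 3 water libraries, so the water values differ by a constant factor of 1.04 to 1.06 between them. EtBr was set against Dox on reads put on 1 scale for all 9 libraries. Differences are log2 ratios of values plus 1, with their standard error (SE), tested with limma across all genes of the comparison and called at a Benjamini-Hochberg adjusted p under 0.05. The median difference of all genes was 0.39 for EtBr against water, 0.14 for EtBr against Dox and -0.01 for Dox against water, on the log2 scale, and with TMM scaling of the reads it was 0.34, 0.04 and -0.02 in the same order. Over genes with a mean of at least 10 it was 0.092 for EtBr against water, 0.076 for EtBr against Dox and -0.0015 for Dox against water. Both organ types were present by their markers. Summed over 10 green shoot markers, levels were 373006 to 564117 in EtBr, 671476 to 781178 in Dox and 723096 to 768435 in water libraries, and over 19 root markers 1539 to 2057 in EtBr, 1304 to 1740.0 in Dox and 1613 to 2642 in water libraries. Against water, 6 green shoot markers were lower and 2 higher under EtBr, and 1 was lower under Dox. Of the root markers, 7 were lower and 2 higher under EtBr, and 7 were lower under Dox. Beside these counts, 21.2% of all genes were lower and 34.2% higher under EtBr, and 5.27% were lower under Dox. The root hair gene EXPA18 stood at 0 in every Dox library. What part these marker differences had in the results below was not tested, and in whole seedlings fewer cells of a type and less RNA per cell cannot be told apart.

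Under EtBr 4 of the 8 genes rose: HRE2, HB1, PCO1 and PCO2 were higher than in water, RAP2.3 was lower, and HRE1, RAP2.2 and RAP2.12 did not pass the test. That is 5 of 8 genes called, where 55.4% of all genes tested were called (34.2% higher and 21.2% lower), so by count alone the 8 genes were near the background. The median log2 difference of the 8 genes was 1.66, beside 0.39 for all genes and 0.092 for genes with a mean of at least 10. Under Dox only HRE2 was higher than in water, HRE1 and RAP2.2 were lower, and the other 5 genes did not pass. That is 3 of 8 called, beside 11.7% of all genes (6.47% higher and 5.27% lower), with a median of -0.35 beside -0.01. Set against Dox directly, EtBr gave higher levels of HRE1, HRE2, RAP2.2, PCO1, PCO2 and HB1 and a lower level of RAP2.3, so 7 of 8 genes were called, beside 57.3% of all genes (32.4% higher and 24.8% lower), with a median of 2.26 beside 0.14. Both comparisons with water use the same water libraries, so their values are not independent of each other.

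**Figure D1:**
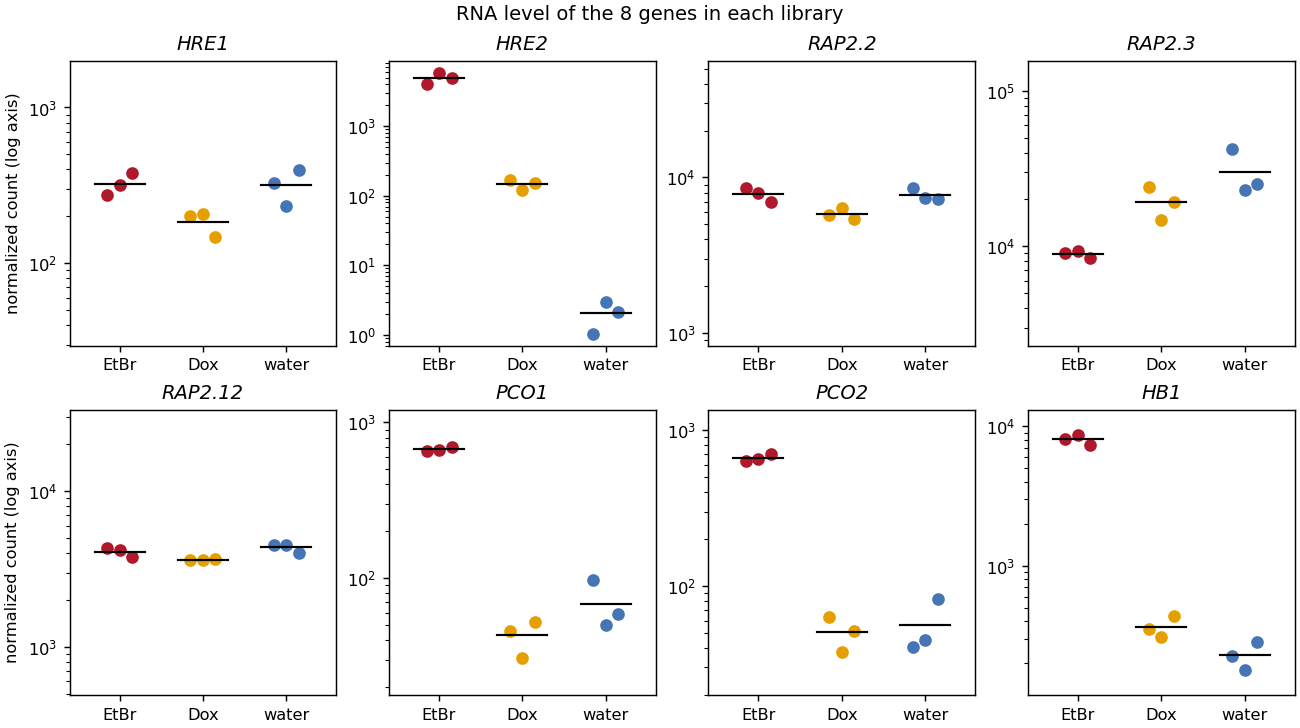
Normalized counts of the 8 genes in each library on a log axis, all 9 libraries on 1 scale, with a panel for each gene and EtBr, Dox and water from left to right. Points are libraries and lines are group means. HRE2 stands at 3 separate levels, PCO1, PCO2 and HB1 are high in EtBr libraries, and RAP2.3 is lowest there.

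**Figure D2:**
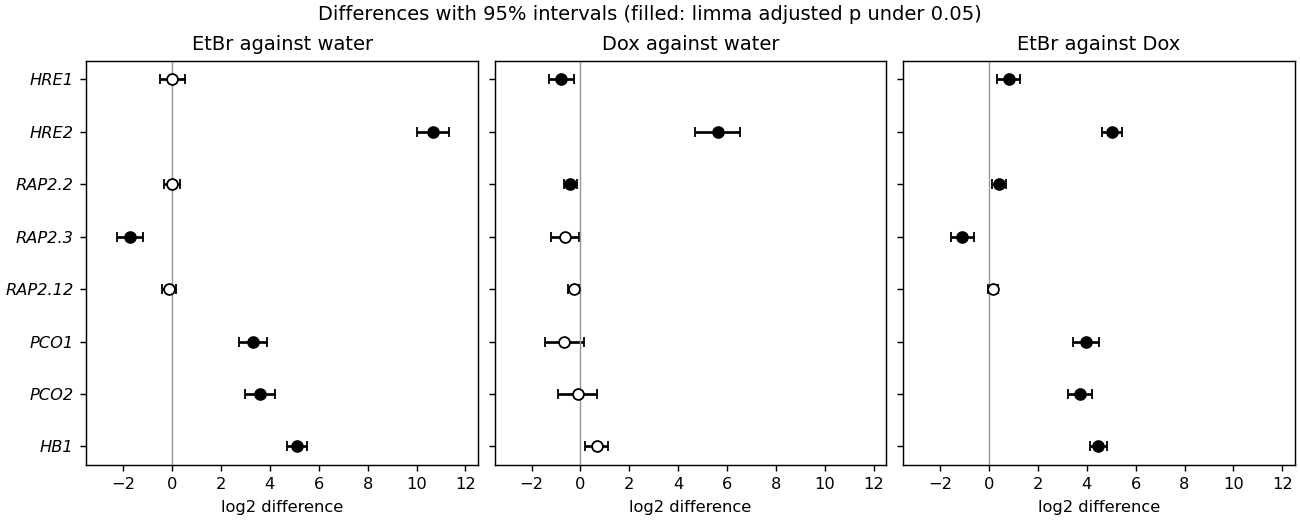
Log2 differences of the 8 genes in 3 comparisons, as limma estimates (points) with 95% intervals (bars). Filled points have an adjusted p under 0.05. HRE2 is far right of 0 in all 3 panels, and PCO1, PCO2 and HB1 are so for EtBr against water and EtBr against Dox.

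HRE2 (AT2G47520, listed as ERF071, chromosome 2, 19502776 to 19503702, minus strand) encodes a group VII factor known for low-oxygen induction of its RNA, and it showed the widest range of the 8. In the EtBr table it had normalized counts of 4087, 5766 and 4871 in EtBr seedlings, against 1.06, 3.06 and 2.18 in water seedlings. In the Dox table it had 163, 116 and 148 in Dox seedlings, against 1.01, 2.88 and 2.1 in water seedlings. The gene was thus close to silent in all 3 water libraries, clearly expressed in all 3 Dox libraries and abundant in all 3 EtBr libraries, with no overlap between any of the groups. The log2 difference was 10.67 ± 0.29 for EtBr against water (limma adjusted p = 1.04e-06), 5.62 ± 0.41 for Dox against water (limma adjusted p = 1.64e-05) and 5.04 ± 0.17 for EtBr against Dox (limma adjusted p = 2.74e-05).

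The water level of HRE2 rests on 6 reads over 3 libraries, beside 15752 reads in EtBr and 432 in Dox. Taken on reads corrected for library size, EtBr exceeded water 2320-fold (95% interval 1065 to 6322) and Dox exceeded water 70.8-fold (32.3 to 194). EtBr exceeded Dox 33.0-fold, with a far narrower interval of 29.98 to 36.4. These exact binomial intervals cover counting error only. Ranked by level per kilobase of gene length among the 24319 genes of both tables, HRE2 stood above 99.1% of genes in EtBr, 57.8% in Dox and 9.79% in water.

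HRE1 (AT1G72360, chromosome 1, 27241696 to 27242968, plus strand), the other factor gene known as inducible, did not follow HRE2. It had normalized counts of 273, 315 and 380 in EtBr seedlings, against 334, 238 and 401 in water seedlings, and these groups overlapped. The log2 difference was 0.01 ± 0.23 (95% interval -0.50 to 0.53; limma adjusted p = 0.96), and its sign differed with the scaling, as it was -0.04 with TMM scaling. In the Dox table it had 191, 198 and 143 in Dox seedlings, against 318, 224 and 386 in water seedlings, each Dox library below each water library. This fall of 0.78 ± 0.22 on the log2 scale just passed (limma adjusted p = 0.0484) and was not called once any 1 of the 6 libraries was left out, with adjusted p between 0.054 and 0.24. The authors' deposited table gives an adjusted p of 0.010 for HRE1 under Dox. EtBr exceeded Dox by 0.80 ± 0.19 (limma adjusted p = 0.011), with no overlap.

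HRE1 shares 124 bases with a gene on the opposite strand, AT1G72370. The sources used here do not say if counting used strand, and without it the reads of both genes in that stretch cannot be told apart. AT1G72370 averaged 6320 ± 145 (SD, n = 3) in EtBr and 5573 ± 749 in water seedlings of the EtBr table, and 4121 ± 272 in Dox and 5305 ± 715 in water seedlings of the Dox table. Its Dox libraries also lay each below each water library, and its part in the HRE1 values was not tested.

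RAP2.2 (AT3G14230, chromosome 3, 4737120 to 4739298, minus strand) and RAP2.12 (AT1G53910, chromosome 1, 20134844 to 20137013, plus strand) encode constitutive factors known to start the response to low oxygen. RAP2.2 had 8496, 7946 and 6989.7 normalized counts in EtBr seedlings, against 8704, 7569.8 and 7364 in water seedlings. RAP2.12 had 4299, 4180.2 and 3760.3 in EtBr seedlings, against 4592, 4607 and 4074 in water seedlings. For both genes the EtBr and water libraries overlapped. The log2 differences were -0.01 ± 0.14 for RAP2.2 (95% interval -0.34 to 0.31; limma adjusted p = 0.94) and -0.12 ± 0.12 for RAP2.12 (-0.40 to 0.17; limma adjusted p = 0.44).

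Under Dox the call differed between the same pair. RAP2.2 had 5521, 6042 and 5234 in Dox seedlings, against 8274, 7133 and 7089.7 in water seedlings. RAP2.12 had 3443, 3463 and 3554 in Dox seedlings, against 4366, 4341 and 3923 in water seedlings. In both genes every Dox library lay below every water library. RAP2.2 fell by 0.42 ± 0.12 on the log2 scale (limma adjusted p = 0.0491), a call that was lost when any 1 of the 6 libraries was left out, with adjusted p between 0.089 and 0.18. The authors' deposited table gives an adjusted p of 0.0098 for RAP2.2 under Dox. RAP2.12 differed by -0.27 ± 0.10 and did not pass (95% interval -0.50 to -0.04; limma adjusted p = 0.12).

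EtBr against Dox gave 0.42 ± 0.12 for RAP2.2 (limma adjusted p = 0.022) and 0.16 ± 0.09 for RAP2.12 (95% interval -0.05 to 0.37; limma adjusted p = 0.16), with no overlap of libraries in either gene. The RAP2.2 call was lost without EtBr replicate 1 or 2 or Dox replicate 1 or 3, with adjusted p of 0.067 to 0.077, and with TMM scaling (0.31; adjusted p = 0.061). RAP2.12 passed once EtBr replicate 3 was left out (0.22; adjusted p = 0.031). In RAP2.12, 403 of 1809 exon stretches of 50 bases also occur at chromosome 1, 20122279 to 20122730, inside AT1G53887. That gene averaged 9.98 normalized counts in EtBr, 21.7 in Dox and 30.7 in water seedlings, water as in the EtBr table. The sources used here do not say how reads that fit both places were counted, and their part in the RAP2.12 values was not tested. No other gene of the 8 had such a stretch elsewhere in the genome.

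RAP2.3 (AT3G16770, chromosome 3, 5705541 to 5707084, plus strand) encodes the third constitutive factor, and it was the only one of the 8 called lower under EtBr. It had 9023, 9337 and 8479.5 normalized counts in EtBr seedlings, against 42661, 23532 and 25254 in water seedlings. All EtBr libraries lay far below all water libraries, of which replicate 1 was the highest by a wide margin. It fell 3.29-fold, a log2 difference of -1.72 ± 0.23 (limma adjusted p = 0.00041), and it fell by 1.45 to 1.88 on the log2 scale with any 1 of the 6 libraries left out. In the Dox table it had 23085, 14084 and 18579 in Dox seedlings, against 40556, 22173 and 24313 in water seedlings, and the highest Dox library exceeded the lowest water library. The log2 difference of -0.62 ± 0.26 did not pass (95% interval -1.19 to -0.05; limma adjusted p = 0.16), though the authors' deposited table gives an adjusted p of 0.034. EtBr was 2.13-fold lower than Dox, at -1.09 ± 0.19 (limma adjusted p = 0.0033), again with no overlap.

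Summed per kilobase of gene length, RNA of the 5 factor genes came to 19329 ± 1275 normalized counts in EtBr, 20266 ± 3458 in Dox and 29726 ± 8385 in water libraries (SD, n = 3 each). Its make-up differed between the treatments. RAP2.3 held 35.5% of it in EtBr, 72.7% in Dox and 76.4% in water libraries. HRE2 held 30.04% in EtBr (25.7 to 32.9% over libraries), 0.87% in Dox and 0.00927% in water libraries. RAP2.2 held 22.1% in EtBr, 16.1% in Dox and 14.7% in water libraries. Together HRE1, RAP2.2 and RAP2.12 came to 6657 ± 524 per kilobase in EtBr, 5245 ± 271 in Dox and 6765 ± 468 in water libraries. The differences in make-up were thus widest for HRE2 and RAP2.3.

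**Figure D3:**
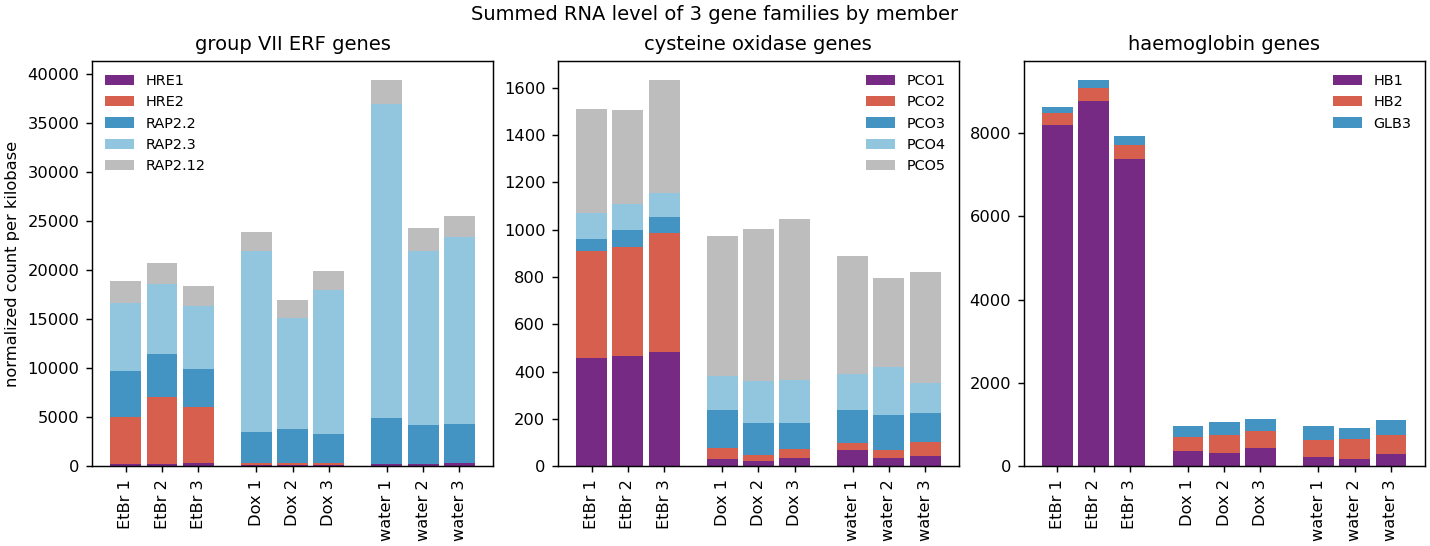
Stacked normalized counts per kilobase for each library (EtBr, Dox, water from left to right) of the group VII factor genes, the 5 cysteine oxidase genes and the 3 haemoglobin genes. HRE2 is a wide band in EtBr libraries, PCO1 and PCO2 together make 60.8% of the oxidase total there, and HB1 makes 94.3% of the haemoglobin total there.

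PCO1 (AT5G15120, chromosome 5, 4898641 to 4900734, plus strand) and PCO2 (AT5G39890, chromosome 5, 15974270 to 15976270, plus strand) encode the cysteine oxidases whose RNA is known to rise in low oxygen. PCO1 had 654, 669 and 693 normalized counts in EtBr seedlings, against 98.4, 51.0 and 59.9 in water seedlings. PCO2 had 636, 649 and 709 in EtBr seedlings, against 41.3, 45.9 and 83.9 in water seedlings. Both genes were high and closely alike in the 3 EtBr libraries and low in all water libraries. PCO1 rose 9.89-fold, a log2 difference of 3.31 ± 0.25, and PCO2 12.04-fold, a log2 difference of 3.59 ± 0.27 (limma adjusted p = 2.6e-05 for each).

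Dox seedlings showed no such rise. PCO1 had 43.6, 29.3 and 50.8 in Dox seedlings, against 93.6, 48.1 and 57.7 in water seedlings, and PCO2 had 60.4, 36.1 and 49.9 in Dox seedlings, against 39.2, 43.3 and 80.8 in water seedlings. The groups overlapped for both. The 95% interval of the log2 difference ran from -1.44 to 0.13 for PCO1 (-0.65; limma adjusted p = 0.28) and from -0.91 to 0.69 for PCO2 (-0.11; limma adjusted p = 0.89). EtBr exceeded Dox 15.7-fold for PCO1 (3.97 ± 0.21; limma adjusted p = 5.1e-05) and 13.1-fold for PCO2 (3.71 ± 0.20; limma adjusted p = 5.3e-05).

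The other 3 cysteine oxidase genes, PCO3, PCO4 and PCO5, are known as the less oxygen-responsive ones. Under EtBr, PCO3 averaged 106 ± 17.6 in EtBr and 238 ± 22.2 in water seedlings (SD, n = 3 each) and fell by 1.18 ± 0.20 on the log2 scale (limma adjusted p = 0.0014). PCO4 averaged 215 ± 13.7 in EtBr and 328 ± 80.0 in water seedlings and fell by 0.58 ± 0.20 (limma adjusted p = 0.038), a call lost without any 1 of the libraries other than water replicate 3. PCO5 differed by -0.05 ± 0.15 (limma adjusted p = 0.79). Under Dox, PCO5 averaged 945 ± 71.4 in Dox and 671 ± 101 in water seedlings and rose by 0.50 ± 0.14 (limma adjusted p = 0.038), and this call was lost without any 1 of the 6 libraries. The 5 oxidase genes summed per kilobase to 1548 ± 71.8 in EtBr, 1006 ± 35.4 in Dox and 836 ± 49.6 in water libraries. PCO1 and PCO2 together held 60.8 ± 0.76% of that sum in EtBr, 6.58 ± 1.57% in Dox and 10.5 ± 1.90% in water libraries, with PCO5 the most abundant single member in Dox and water.

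HB1 (AT2G16060, listed as AHB1, chromosome 2, 6982531 to 6983777, minus strand) encodes the class 1 haemoglobin that binds oxygen with high affinity and scavenges nitric oxide. It had 8103, 8674 and 7296 normalized counts in EtBr seedlings, against 231, 182 and 288 in water seedlings. In the Dox table it had 335, 292 and 423 in Dox seedlings, against 219, 171 and 277 in water seedlings. All EtBr libraries lay far above all others, and all Dox libraries lay just above all water libraries. HB1 rose 34.8-fold under EtBr, a log2 difference of 5.12 ± 0.18 (limma adjusted p = 1.8e-06). The Dox difference of 0.66 ± 0.21 did not pass (95% interval 0.20 to 1.12; limma adjusted p = 0.068), while the authors' deposited table gives 0.034 and DESeq2 on the recovered reads also 0.034. EtBr exceeded Dox 22.1-fold (4.47 ± 0.15; limma adjusted p = 2.7e-05).

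The class 2 haemoglobin gene HB2 and the truncated haemoglobin gene GLB3 moved the other way under EtBr. HB2 had 276, 304 and 338 in EtBr seedlings, against 401, 485 and 454 in water seedlings, and fell by 0.54 ± 0.15 on the log2 scale (limma adjusted p = 0.015; 0.051 without water replicate 3). GLB3 had 169, 218 and 237 in EtBr seedlings, against 407, 310.2 and 442 in water seedlings, and fell by 0.89 ± 0.20 (limma adjusted p = 0.0059). Neither group pair overlapped. Under Dox neither gene passed, with log2 differences of -0.17 ± 0.14 for HB2 and -0.21 ± 0.17 for GLB3 (limma adjusted p = 0.49 and 0.47). EtBr against Dox gave -0.67 ± 0.16 for GLB3 (limma adjusted p = 0.012) and -0.36 ± 0.14 for HB2, which did not pass (limma adjusted p = 0.061; 0.025 with TMM scaling, 0.038 without EtBr replicate 3 and 0.0498 without Dox replicate 1). HB1 held 94.3 ± 1.04% of the summed haemoglobin RNA per kilobase in EtBr, 35.1 ± 5.15% in Dox and 22.9 ± 3.12% in water libraries, and that sum was 8603 ± 674 in EtBr, 1051 ± 85.8 in Dox and 1006 ± 102 in water libraries.

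Put in order by level per kilobase, the 8 genes ranked differently in each group. In EtBr libraries HB1 led at 8114, followed by RAP2.3 at 6850.4, HRE2 at 5822, RAP2.2 at 4264 and RAP2.12 at 2139.5, and then by PCO2 at 473, PCO1 at 467 and HRE1 at 254. RAP2.3 and HRE2 overlapped over libraries, as did PCO2 and PCO1. In Dox libraries RAP2.3 led at 14845, followed by RAP2.2 at 3191, RAP2.12 at 1908, HB1 at 369, HRE2 at 176, HRE1 at 145, PCO2 at 36.2 and PCO1 at 29.9, and the last pair and the pair of HRE2 and HRE1 overlapped. In water libraries RAP2.3 led at 22959, followed by RAP2.2 at 4231, RAP2.12 at 2282, HRE1 at 251, HB1 at 232, PCO1 at 47.7, PCO2 at 40.0 and HRE2 at 2.45. There HRE1 overlapped with HB1 and PCO1 with PCO2.

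The N-degron pathway destroys the oxidised factors. Of 12 other genes of this pathway, 4 were higher and 3 lower under EtBr against water, with a median log2 difference of -0.01, and 1 was higher under Dox, with a median of -0.02. Of all genes, 34.2% were higher and 21.2% lower under EtBr and 6.47% were higher under Dox, so the counts of this list stood near the background. The gene called under Dox was PCO5, and MAP2A came next (-0.36 ± 0.11; limma adjusted p = 0.052) without passing. Besides PCO3 and PCO4, MAP2A, a methionine aminopeptidase gene, was also lower under EtBr (-0.37 ± 0.14; limma adjusted p = 0.046). The genes that rose were BIG (0.85 ± 0.17; limma adjusted p = 0.0028), whose large protein works with the pathway's ligase, PRT6 (0.81 ± 0.17; limma adjusted p = 0.0043), the gene of that ligase, and the aminopeptidase genes MAP2B (0.57 ± 0.13; limma adjusted p = 0.0067) and MAP1A (0.41 ± 0.13; limma adjusted p = 0.025). ATE1 and ATE2, whose arginyl transferases prepare the oxidised cysteine for the ligase, differed by 0.03 ± 0.13 and 0.11 ± 0.19 and did not pass (limma adjusted p = 0.84 and 0.63). The MAP2A call was lost without any 1 library other than EtBr replicate 1, and the MAP1A call without EtBr replicate 1 or water replicate 1 or 3. In all, 4 of the 12 genes were called without water replicate 1, in place of 7. Of all genes, 8909 were then higher and 5446 lower, in place of 9906 and 6134. Set against Dox, EtBr gave 4 higher and 3 lower, beside 32.4% and 24.8% of all genes; MAP1A (0.53 ± 0.08; limma adjusted p = 0.0017) and MAP2B (0.57 ± 0.11; limma adjusted p = 0.0043) had the smallest adjusted p, and PCO3, PCO4 and PCO5 were the lower ones. BIG and PRT6, the other higher ones, were not called without EtBr replicate 1 or 2 or Dox replicate 1 or 3, nor with TMM scaling.

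Among 5 genes for other proteins that carry the oxidisable cysteine or bind the factors, HRA1 and ACBP2 were higher under EtBr, a count of 2 of 5 that is near the 34.2% of all genes called higher. HRA1, whose protein binds RAP2.12 and restrains it, rose by 1.72 ± 0.31 on the log2 scale (limma adjusted p = 0.0018), and ACBP2, whose acyl-CoA-binding protein holds RAP2.12 at the membrane, by 0.69 ± 0.20 (limma adjusted p = 0.018; lost without EtBr replicate 2 or 3 or water replicate 2). VRN2 and ZPR2, genes for proteins with the oxidisable cysteine, and ACBP1 did not pass, with -0.00 ± 0.14, 0.93 ± 0.54 and 0.12 ± 0.13 (limma adjusted p = 0.99, 0.18 and 0.42). Under Dox their log2 differences lay between -0.87 ± 0.73 for ZPR2 and 0.37 ± 0.27 for HRA1, with limma adjusted p of 0.427 or more. Against Dox, HRA1 (1.36 ± 0.32; limma adjusted p = 0.0105), ACBP2 (0.56 ± 0.17; limma adjusted p = 0.028) and ZPR2 (1.81 ± 0.65; limma adjusted p = 0.049) were higher under EtBr, beside 32.4% of all genes. The last call was lost without any 1 library other than Dox replicate 2, and that of ACBP2 without EtBr replicate 2 or any 1 Dox library; neither passed with TMM scaling.

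Fermentation and sucrose cleavage genes are the best known targets of the factors. All 5 measured here rose under EtBr, where 34.2% of all genes were higher, and 4 of 5 under Dox, where 6.47% were. ADH1, alcohol dehydrogenase, had 1766, 1828 and 1123 normalized counts in EtBr seedlings, against 60.3, 41.8 and 55.6 in water seedlings, and 352, 321 and 329 in Dox seedlings, against 57.3, 39.4 and 53.5 in water seedlings. It rose by 4.86 ± 0.24 under EtBr (limma adjusted p = 5.1e-06) and by 2.73 ± 0.21 under Dox (limma adjusted p = 2.3e-05), and stood 2.14 ± 0.19 higher in EtBr than in Dox (limma adjusted p = 0.00021). ADH1 thus kept the order EtBr, Dox, water that HRE2 had, with no overlap.

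PDC1, a pyruvate decarboxylase gene, did not keep that order. It had 1942, 1905 and 1632 in EtBr seedlings, against 32.8, 12.2 and 46.9 in water seedlings, and 1536, 2023 and 1712 in Dox seedlings, against 31.2, 11.5 and 45.1 in water seedlings. The rise was 6.04 ± 0.42 under EtBr (limma adjusted p = 1.9e-05) and 6.04 ± 0.39 under Dox (limma adjusted p = 6.3e-06). EtBr against Dox gave -0.00 ± 0.13 (limma adjusted p = 0.9996), with overlapping libraries. PDC2, a second decarboxylase gene, rose by 2.55 ± 0.16 under EtBr and 1.31 ± 0.14 under Dox, and the sucrose synthase gene SUS1 by 2.98 ± 0.23 and 1.81 ± 0.20 (limma adjusted p at most 0.00031 in each case). SUS4, another sucrose synthase gene, rose by 3.26 ± 0.49 under EtBr (limma adjusted p = 0.00069) and did not pass under Dox (-0.01 ± 0.55; limma adjusted p = 0.995). Against Dox, PDC2 (1.25 ± 0.18), SUS1 (1.18 ± 0.14) and SUS4 (3.28 ± 0.37) were higher under EtBr (limma adjusted p at most 0.00134).

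A wider list of 44 genes known to respond to low oxygen, which leaves out the 8 genes and holds the 5 just named, moved in both directions under EtBr. Of 43 measured under EtBr, 22 were higher, 12 lower and 9 did not pass, with a median log2 difference of 0.67, beside 0.39 for all genes and 0.092 for genes with a mean of at least 10. Of 42 under Dox, 14 were higher, 1 lower and 27 did not pass, with a median of 0.39 beside -0.01. The Dox count of 15 called genes was 7 without Dox replicate 1 and 6 without Dox replicate 2 or 3 or water replicate 3. Calls over all genes fell too, from 1581 higher and 1287 lower under Dox with all 6 libraries. Without Dox replicate 1, 2 or 3 or water replicate 3, higher genes numbered 547, 561, 520 and 662. Lower genes numbered 255, 248, 257 and 262 in the same order. Between EtBr and Dox, 18 were higher, 18 lower and 6 did not pass, with a median of 0.03 beside 0.14. Of all genes, 34.2% were higher and 21.2% lower under EtBr, and 6.47% and 5.27% under Dox. For EtBr against Dox, 32.4% were higher and 24.8% lower. Refitted over genes with a mean of at least 10, 7579 of 21937 were higher and 6091 lower under EtBr. Under Dox these were 1571 and 1262 of 19647, and for EtBr against Dox 7246 and 6112 of 21092. The list is drawn from general knowledge of the response.

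By the smallest adjusted p, LBD41, a transcription factor gene, rose by 3.46 ± 0.15 under EtBr (limma adjusted p = 3.8e-06). It averaged 3933 ± 549 in EtBr and 357 ± 44.9 in water seedlings (SD, n = 3 each). AT2G17850 had 781 reads over the 3 EtBr libraries and 0 over the water libraries, at least 230-fold higher under EtBr with a floor of 3 reads over the water group. Under Dox, AT3G03270 rose by 2.32 ± 0.14 (limma adjusted p = 4.0e-06) and ANAC102, a NAC transcription factor gene, by 1.56 ± 0.11 (limma adjusted p = 1.0e-05). Against Dox, LBD41 (2.77 ± 0.12), AT3G27220 (2.59 ± 0.14) and the ethylene receptor gene ETR2 (1.08 ± 0.07) were higher under EtBr, and AT2G15880 was lower (-2.27 ± 0.13; limma adjusted p at most 8.5e-05 for these 4).

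**Figure D4:**
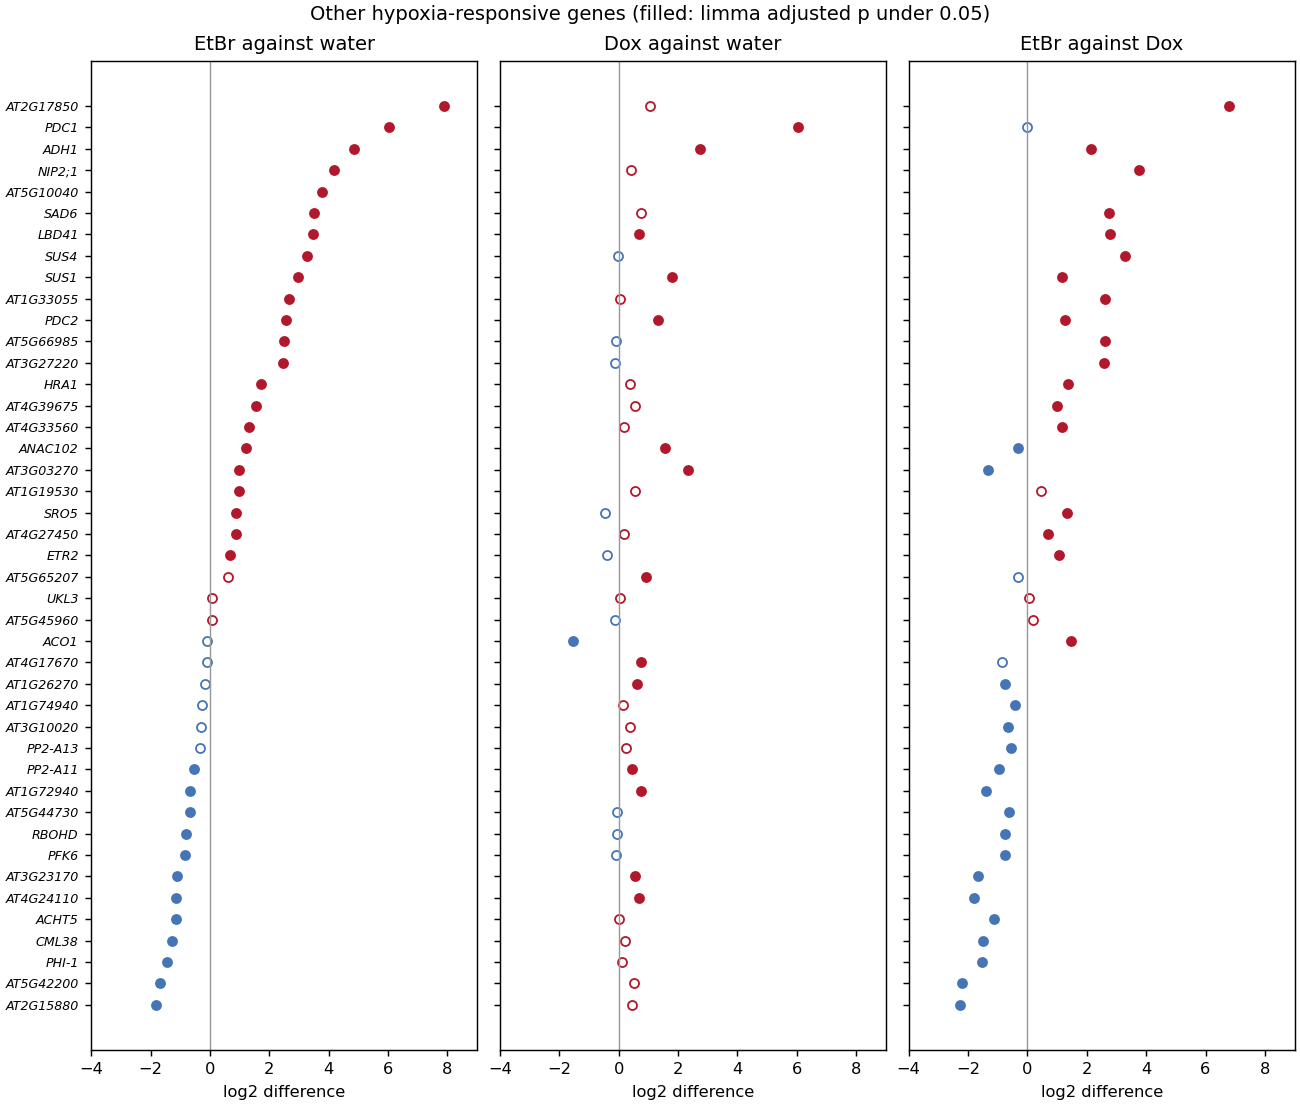
Log2 differences of the 43 measured genes of the low-oxygen list in 3 comparisons, as limma estimates, ordered by EtBr against water. Points right of 0 are red and left of 0 blue, and filled points have an adjusted p under 0.05. The list splits under EtBr into 22 higher and 12 lower genes, beside 34.2% and 21.2% of all genes. Refitted over genes with a mean of at least 10, 7579 of 21937 were higher and 6091 lower. Most points of the Dox panel are open.

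Over the 9 libraries, the profiles of PCO2 and HB1 were alike (Pearson r = 0.980 on log2 values), as were those of PCO1 and PCO2 (r = 0.963). HRE2 had r = 0.901 with HB1, 0.827 with PCO2, 0.743 with PCO1 and -0.918 with RAP2.3. These values mostly restate the 3 group levels and are descriptions only. Among 17222 genes with a mean of at least 50, HRE2 was most like AT1G73480 (r = 0.997) and PHB1, a prohibitin gene (r = 0.997). PHB1 averaged 4020.3 in EtBr, 1351 in Dox and 399 in water libraries. PCO1 was most like the glutathione transferase gene GSTF2 (r = 0.998) and APK4 (r = 0.993), PCO2 like AT3G56870 (r = 0.996) and RABH1a (r = 0.995), and HB1 like the gene of the plant natriuretic peptide PNP-A (r = 0.998) and AT1G68300 (r = 0.997). RAP2.3 was most like AT3G01520 (r = 0.984) and the pectin methylesterase gene PME41 (r = 0.979).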

How the data were processed

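RNA of 9 seedling libraries was sequenced: 3 of EtBr, 3 of Dox and 3 of water, with total RNA extracted by TRIzol and libraries made with a NEBNext Ultra kit, per the labels' protocols. Per the submitters' processing notes the tools were DESeq 1.18.0, HTSeq 0.6.1, TopHat2 2.0.12, Bowtie2 2.2.3 and CASAVA 1.8, listed without roles. Which genome build served was not given in the sources used here. Gene positions are those of the deposited tables, and 28255 of 29071 identifiers matched RefSeq's TAIR10.1, 99.98% of them with the same start and end.

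The authors deposited 1 table with 28956 genes for EtBr and 1 with 24434 genes for Dox, each set against water. The deposited signal values of each library were counts of reads scaled by a library factor. This was tested: in each of 12 columns 100% of values came out as whole reads (tolerance 0.001), a weak test in 4 columns whose factor was near 1. The recovered reads of water were equal in both tables. The authors' log2 fold changes and adjusted p-values were copied from the deposited tables where named.

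Each comparison was fitted with limma 3.58.1 (R 4.3.3) on log2(value + 1) over all genes, with a mean-variance trend, its 6 libraries and no replicate block, adjusted by Benjamini-Hochberg with 0.05 as the threshold. For EtBr against Dox the recovered reads of 24319 shared genes were brought to 1 scale by median-ratio size factors over 9 libraries. The fits were tested on simulated data. Alternatives were pseudocounts of 0.1 and 5, a mean of at least 10, TMM, no trend, edgeR 4.0.16, DESeq2 1.42.0, the replicate block, each library left out and, chosen after seeing the data, centring on the median gene. Replicates of a group differed beyond sampling noise (chi-square over its degrees of freedom at least 8.28), so none was counted as a copy.

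The 8 genes and all lists were chosen with earlier results of these data known, so no count over them is independent support. Named were all 8 genes, every gene of the short lists, the genes with the smallest adjusted p and a mean of at least 10 (2 of the N-degron list and 4 of the low-oxygen list in each comparison) and the 2 most alike genes for 5 of the 8. The other N-degron genes were named after their values were seen.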

Additional observations from a re-analysis of the deposited data

How the results depend on the processing

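Under EtBr against water the same 5 genes, HRE2, RAP2.3, PCO1, PCO2 and HB1, were called in every alternative run. Over those runs 7579 to 9838 of all genes were higher and 4874 to 6432 lower, of 21937 to 28956 tested. The count of the 8 genes called for Dox against water was 3 in the fit reported. It was 1 with a pseudocount of 0.1 or 5, without a trend and with any 1 library left out (1 to 1). It was 5 with DESeq2, and HRE2 was called in each. Of all genes, 1581 were higher and 1287 lower under Dox in the fit reported. These were 1469 and 1171 with a pseudocount of 0.1, 1552 and 1265 with 5, and 872 and 553 without a trend. They were 520 to 1168 and 248 to 812 with 1 library left out, 1252 and 891 with the replicate block, and 1787 and 1644 with DESeq2. With a mean of at least 10 they were 1571 and 1262 of 19647 tested, and with edgeR 1497 and 1356 of 19666. Centring gave 1462 and 1488 of 24434. Low-oxygen genes called under Dox numbered 15, but 6 without a trend and 6 to 11 with 1 library left out. N-degron genes called under Dox numbered 1, but 2 with a pseudocount of 5, a mean of at least 10, edgeR, DESeq2 or centring, and 0 without a trend, with the replicate block or with any 1 library left out (0 to 0). N-degron genes called under EtBr against water numbered 7, but 4 without a trend and 4 to 5 with 1 library left out. Of all genes, 9906 were higher and 6134 lower in that comparison. These were 9196 and 5437 without a trend, and 8433 to 9727 and 4874 to 5760 with 1 library left out. Signs turned for HRE1 under EtBr against water (-0.041 with TMM, -0.042 with edgeR, -0.0068 with DESeq2, -0.19 to 0.18 with 1 library left out), for RAP2.2 there (-0.076 to 0.064) and for PCO2 under Dox (-0.30 to 0.21); the cause was not tested. Of 360 refitted differences of the 8 genes, 322 kept direction and side of the threshold.

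The check made does not settle whether the replicate numbers pair the samples. Same-numbered deviations correlated at -0.03, 0.04 and 0.01 between Dox and water, -0.21, 0.20 and 0.00 between EtBr and water, and 0.08, 0.15 and 0.35 between EtBr and Dox. The same-numbered library was the most alike for EtBr replicates 2 and 3 against Dox and for EtBr replicate 2 against water. It was so for no Dox replicate against water. With the replicate block, 2 of the 8 genes were called under Dox (HRE2 and HB1), 5 under EtBr against water and 7 for EtBr against Dox. Under EtBr against water 6 N-degron genes were then called, without MAP2A (limma adjusted p = 0.057). Of 28956 genes tested for EtBr against water, 9717 were higher and 6009 lower with the block. For EtBr against Dox these were 7883 and 5992 of 24319, and for Dox against water 1252 and 891 of 24434. Depth limits HRE2 in water, with 6 reads. Where a gene did not pass, its interval, not the p, bounds the difference.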
